A study of Mus with 9 samples.

Results

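The transcripts of 10 immediate early genes were examined in mouse kidney by RNA-seq. The genes were Fos, Fosb, Fosl1, Fosl2, Jun, Junb and Jund, which encode subunits of the transcription factor AP-1, together with Atf3, Egr1 and Ier3. They were taken by gene symbol from a table of 54532 genes. All 10 were present, and all 10 passed the filter on low counts that left 15902 genes for testing. Kidneys came from 9 male C57BL/6 mice in 3 groups of 3, and every mouse had undergone unilateral nephrectomy at the age of 18 months. The 18 mo mice were killed 1 week after surgery. The 21 mo mice received saline intraperitoneally for 12 weeks. The 21 mo/O304 mice received O304, an activator of the energy-sensing kinase AMPK, intraperitoneally at 10 mg/kg per day for the same 12 weeks. Age, time since surgery and injection therefore differed together between the 18 mo group and the others and cannot be told apart. Libraries held 15636378 to 18396725 counts. Each library was taken as 1 mouse, and the labels do not state this, so p-values measure the spread between these libraries.

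AP-1 is a dimer held together by leucine zippers. Jun proteins pair with each other or with Fos proteins, whereas Fos proteins need a partner to bind DNA. Fos, Fosb, Jun, Junb, Egr1, Atf3 and Ier3 are switched on within minutes of a growth factor, stress or injury signal, without new protein synthesis, and their mRNAs are short-lived. In kidney, both tubular cells and infiltrating leukocytes express these genes after injury. Bulk tissue was sequenced, so a change in the number of cells of a type and a change in RNA per cell cannot be told apart.

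The kidney libraries differed most within the 21 mo group. The 7 proximal tubule markers summed to 9730, 12200 and 11700 CPM (counts scaled to library size) in 18 mo replicates 1 to 3 and to 10000, 11100 and 11200 CPM with O304, but to 10200, 4960 and 1460 CPM in 21 mo replicates 1, 2 and 3. All 7 were detected in each group. In 21 mo replicate 1, 3 of the 7 were above the 18 mo range and 3 below it, beside 31.1% and 33.4% of all tested genes. Lrp2 had 3220 CPM there, against 2040 to 2480 CPM at 18 mo, and Slc34a1 3510 CPM, against 4590 to 6280 CPM. In 21 mo replicates 2 and 3, 6 of the 7 were below that range, beside 36.1% and 40.5% of all tested genes. The 7 macrophage markers summed to 376, 213 and 269 CPM at 18 mo, 586, 971 and 3010 CPM at 21 mo, and 458, 432 and 467 CPM with O304. The 7 fibroblast markers summed to 162, 171 and 244 CPM, then 133, 334 and 946 CPM, and 103, 163 and 272 CPM in the same order. None of the macrophage or fibroblast markers was at 0 throughout a group. Macrophage markers above the 18 mo range numbered 7, 6 and 7 in 21 mo replicates 1, 2 and 3. The shares of all tested genes above it were 31.1%, 37.3% and 41.3%. Neutrophil markers summed to 12.1, 6.47 and 12.3 CPM at 18 mo, 62.3, 18.8 and 53.7 CPM at 21 mo and 14.0, 14.1 and 22.4 CPM with O304, so that 21 mo replicate 1 was the highest library for these. Adipocyte markers summed to 46.1 to 89.7 CPM, 34.4 to 128 CPM and 108 to 262 CPM. Fabp4 was the largest part of each sum. Adipoq had 0, 0 and 1.41 CPM at 18 mo, 0.0669, 0 and 0.504 CPM at 21 mo and 21.6, 1.97 and 15.1 CPM with O304. All 4 tested adipocyte markers were above the 18 mo range in each O304 library, against 30.0% to 32.3% of all tested genes. Skeletal muscle markers were at 0 to 0.962 CPM, and the sums for T cells, B and plasma cells, endothelium, podocytes, thick limb and collecting duct overlapped between all 3 groups. In 21 mo replicate 3, however, podocyte markers summed to 592 CPM, against 200 to 290 CPM at 18 mo. B and plasma cell markers summed to 640 CPM there, against 107 to 229 CPM at 18 mo and 218 to 702 CPM with O304. Endothelial markers summed to 152 CPM in that library, against 181 to 298 CPM at 18 mo. Hence 21 mo replicates 2 and 3 stood apart by the sums of proximal tubule and fibroblast markers and had the highest macrophage sums. Results that rest on them are given beside these sums. Single markers of these lists also lay outside the 18 mo range in 21 mo replicate 1.

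Across the 10 genes, the same 2 libraries were highest. The mean log2 CPM of the 10 genes, relative to the 18 mo mean, was -0.28, 1.37 and 2.10 in 21 mo replicates 1, 2 and 3. It lay between -0.14 and 0.22 in the 18 mo libraries and between -0.46 and 0.50 in the 21 mo/O304 libraries. All 10 genes in 21 mo replicate 3 and 8 genes in replicate 2 were above the highest 18 mo library, against 41.3% and 37.3% of all tested genes. In 21 mo replicate 1, only Junb and Fosl2 were above the 18 mo range, while Fosb, Jun, Jund and Ier3 were below it. Over all tested genes, 31.1% were above and 33.4% below in that library.

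**Figure D1:**
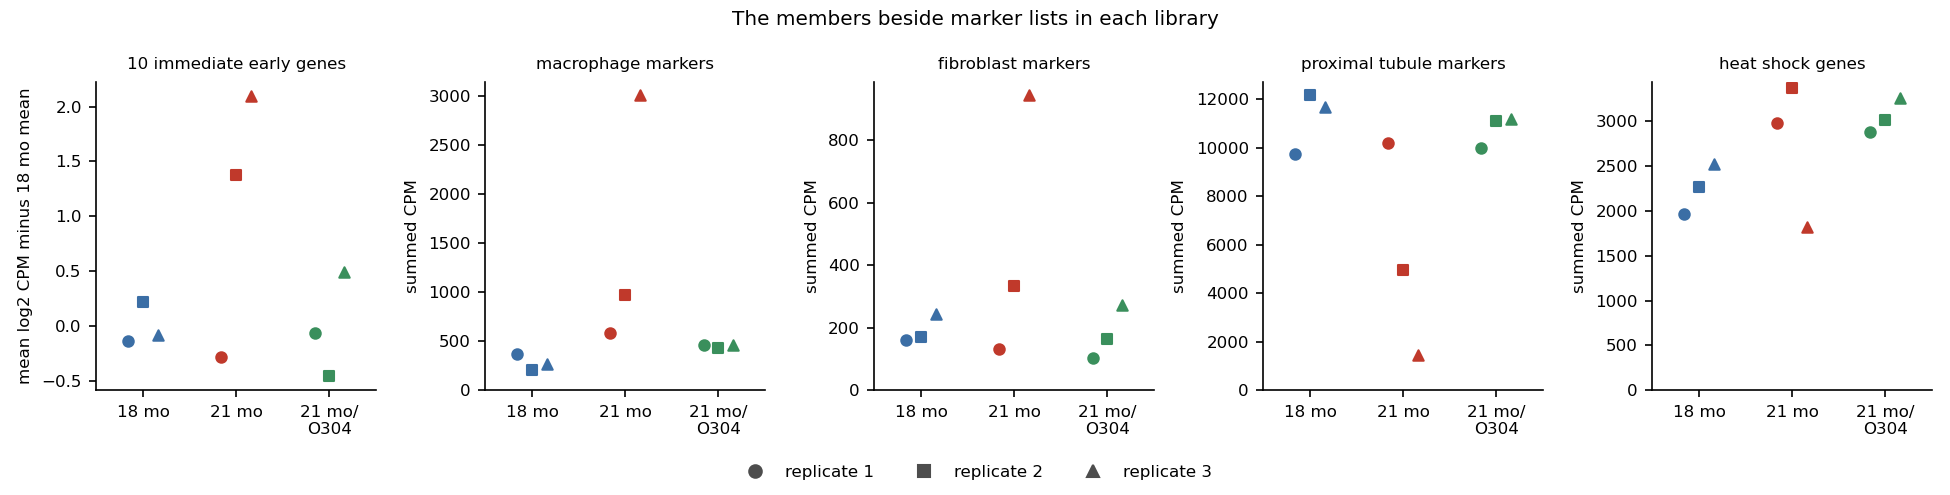
Each point is 1 library, drawn by group on the x axis and with the symbol of its replicate. The y axes give the mean log2 CPM of the 10 genes minus its 18 mo mean, and the summed CPM of the macrophage, fibroblast and proximal tubule markers and of 7 heat shock genes. In 21 mo replicate 3, the 10 genes were at 2.10 and proximal tubule markers at 1460 CPM, and in 21 mo replicate 1 they were at -0.28 and 10200 CPM.

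By amount per length, the genes spanned a wide range. In the 18 mo kidney, Ier3 had 49.3 ± 14.2 FPKM (fragments scaled by gene length and library size, SD, n = 3), Jund 39.0 ± 7.31, Jun 20.2 ± 10.2 and Junb 11.0 ± 1.21. Below these came Egr1 with 2.45 ± 1.16 FPKM, Fosl2 with 2.08 ± 0.213, Atf3 with 1.40 ± 0.716, Fos with 1.02 ± 0.565, Fosl1 with 0.369 ± 0.157 and Fosb with 0.0786 ± 0.0312. Between neighbours in this order, the ranges of the 3 libraries did not overlap for Jun over Junb, Junb over Egr1 and Fosl1 over Fosb. The ranges of the other neighbours overlapped, although Jund was above Jun and Fosl2 above Atf3 in each of the 3 libraries. Jun and Junb were therefore well above Fos and Fosb in the 18 mo kidney, and Jund held the largest mean share of the Jun family. In the 21 mo group, only Fosl2 over Fosl1 had ranges that did not overlap between neighbours. Within each of its 3 libraries, however, Ier3 was above Junb, Jun above Egr1, Egr1 above Atf3 and Fosl1 above Fosb. By group mean, Junb was the 4th gene at 18 mo and the 2nd at 21 mo, with 41.9 ± 36.3 FPKM. It was above Jund, the 3rd, in only 1 of the 3 libraries, replicate 3, with 83.0 against 46.7 FPKM. With O304, Junb was the 4th again at 16.8 ± 3.71 FPKM.

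Comparison of 21 mo with 18 mo asks what differs in the kidney after 12 further weeks. None of the 10 genes passed an adjusted p of 0.05 (edgeR quasi-likelihood test with Benjamini-Hochberg adjustment), and 0.0189% of all tested genes did, which was 3 genes. At an unadjusted p under 0.05, 6 of 10 genes were higher, namely Fos, Fosl1, Fosl2, Junb, Egr1 and Atf3, against 14.0% of all tested genes, and none was lower, against 12%. DESeq2 called 5 of these 6 at its adjusted p, against 6.92% called higher among all genes it tested. The fitted log2 fold change was above 1 for 7 genes, against 9.06% of all tested genes. Its median over the 10 genes was 1.48, beside 0.034 over all tested genes. At least 2 of the 21 mo libraries exceeded the highest 18 mo library for 8 genes, against 35.5% of all tested genes, but the groups did not overlap for only Fosl2 and Junb, 2 of 10 genes against 13.5%. Without 21 mo replicate 1, 7 of the 10 genes were called higher, the 6 above and Jun, against 13.6% of all tested genes. Without 21 mo replicate 3, none was called, the median was 0.81, and the fitted log2 values were 1.17 for Fos, 1.35 for Egr1, 0.94 for Junb, 0.63 for Fosl2 and 1.87 for Atf3.

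O304 was compared with saline at 21 mo to ask what the AMPK activator altered. The fitted log2 fold changes ran from -2.76 for Fos to -0.28 for Jund, with a median of -1.35 beside -0.019 over all tested genes. None passed an adjusted p of 0.05, nor did any of the 15902 genes (0%), and the smallest adjusted p over all genes was 0.15. At an unadjusted p under 0.05, 4 genes were lower, namely Fos, Fosl2, Junb and Atf3, against 12.4% of all tested genes, and none was higher, against 8.27%. DESeq2 called Fos, Fosl2 and Atf3 at its adjusted p, against 4.27% called lower among all genes it tested. The groups overlapped for each of the 10 genes, while 10.5% of all tested genes lay wholly lower. Without 21 mo replicate 1, 6 of 10 genes were called lower, namely Fos, Fosl1, Fosl2, Junb, Egr1 and Atf3, against 12.6% of all tested genes. Without 21 mo replicate 3 the median over the 10 genes was -0.67 and none was called. This comparison shares its 21 mo libraries with the one above.

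**Figure D2:**
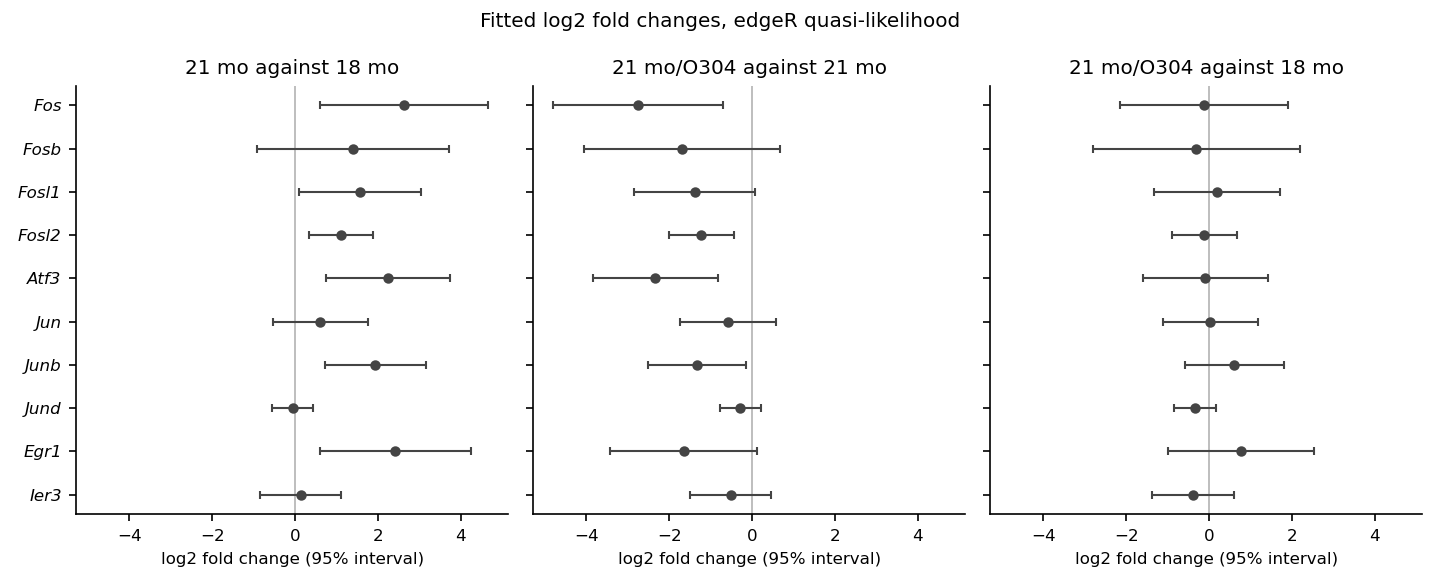
Points give the fitted log2 fold change of each gene and bars its 95% interval, in 3 panels for the 3 comparisons, with n = 3 libraries per group. Fos was at 2.64 in the left panel (21 mo against 18 mo) and at -2.76 in the middle panel (21 mo/O304 against 21 mo), and each interval for 21 mo/O304 against 18 mo includes 0.

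Against 18 mo, O304-treated kidneys had fitted log2 fold changes from -0.38 for Ier3 to 0.77 for Egr1, with a median of -0.098 beside 0.003 over all tested genes. No gene of the 10 passed an adjusted p of 0.05 (0% of all tested genes passed), none reached an unadjusted p under 0.05 (9.66% of all tested genes did), and DESeq2 over all 9 libraries called none. With DESeq2 on the 6 libraries compared, Junb alone was called, against 2.48% called higher among the genes it tested. The 95% intervals were wide for Fos, from -2.15 to 1.91, and for Atf3, from -1.59 to 1.42, and narrower for Fosl2, from -0.89 to 0.67, and Jund, from -0.84 to 0.16. In this fit, a 2-fold difference lay inside the interval for Fos and Atf3 but outside it for Fosl2 and Jund. The fit was over all 9 libraries, so the spread of the 21 mo group also enters these intervals. The median SD of log2 CPM over the 10 genes was 1.29 at 21 mo, beside 0.51 at 18 mo and 0.51 with O304. Their width therefore does not measure the 18 mo and 21 mo/O304 groups alone.

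The Fos subunits are described first. Fos (ENSMUSG00000021250, chr12:85473890-85477273, GRCm38, plus strand), the prototype immediate early gene, had 2.66, 3.70 and 1.02 CPM in the 18 mo libraries, 3.34, 7.79 and 34.5 CPM in the 21 mo libraries and 1.74, 0.894 and 4.14 CPM with O304. Replicates 2 and 3 of 21 mo were above every other library, and replicate 1 lay within the 18 mo range. The log2 fold change was 2.64 ± 0.90 (SE, n = 3 per group, adjusted p = 0.118) against 18 mo and -2.76 ± 0.91 (adjusted p = 0.182) for O304 against 21 mo.

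Fosb (ENSMUSG00000003545, chr7:19302696-19310051, minus strand), a close relative of Fos, was scarcely detected. Its counts summed to 124 over the 9 libraries, and 4 libraries were over the filter minimum. Levels were 0.681, 0.555 and 0.283 CPM at 18 mo, 0.134, 1.48 and 2.34 CPM at 21 mo, and 0.465, 0 and 0.764 CPM with O304. The library with 0 counts allows a level of up to 0.179 CPM (3 counts) from counting error alone. The fitted log2 fold changes were 1.39 ± 1.03 against 18 mo (adjusted p = 0.406) and -1.70 ± 1.05 for O304 against 21 mo (adjusted p = 0.357).

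Fosl1 (ENSMUSG00000024912, chr19:5447703-5455945, plus strand) encodes Fra-1, a Fos protein without the strong activation domain of Fos. It was also low, with 181 counts over the 9 libraries and 5 libraries over the filter minimum. It had 0.557, 0.431 and 0.962 CPM at 18 mo, 0.468, 2.96 and 2.38 CPM at 21 mo and 0.523, 1.07 and 0.637 CPM with O304. Its 21 mo replicate 2 was the highest library, unlike for Fos. Log2 fold changes were 1.57 ± 0.65 (adjusted p = 0.173) and -1.38 ± 0.65 (adjusted p = 0.258) in the same 2 comparisons.

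Fosl2 (ENSMUSG00000029135, chr5:32135801-32157842, plus strand) encodes Fra-2 and had the narrowest intervals among the Fos genes. It had 19.1, 20.1 and 23.1 CPM at 18 mo, 23.1, 41.7 and 69.7 CPM at 21 mo and 16.2, 17.4 and 24.1 CPM with O304. The 18 mo and 21 mo groups did not overlap, yet their nearest libraries both read 23.1 CPM. Its log2 fold change against 18 mo was 1.11 ± 0.34 (adjusted p = 0.0996), with an exact two-sided permutation p of 0.1, the smallest that 3 against 3 libraries can give. For O304 against 21 mo it was -1.22 ± 0.35 (adjusted p = 0.175).

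Atf3 (ENSMUSG00000026628, chr1:191170296-191218039, minus strand), a stress-induced leucine zipper protein that pairs with Jun proteins and represses many of its targets, had 1.80, 2.65 and 4.86 CPM at 18 mo. The 21 mo libraries had 3.28, 19.7 and 21.3 CPM, and the 21 mo/O304 libraries 2.04, 2.44 and 4.33 CPM. As with Fosl1, 21 mo replicates 2 and 3 were near each other and replicate 1 lay inside the 18 mo range. The log2 fold change was 2.25 ± 0.67 against 18 mo (adjusted p = 0.093) and -2.33 ± 0.67 for O304 against 21 mo (adjusted p = 0.175).

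Among the Jun subunits, Junb differed most. Junb (ENSMUSG00000052837, chr8:84974484-84978718, minus strand), a Jun protein that often restrains Jun, had 24.1, 24.9 and 29.3 CPM at 18 mo, 33.8, 67.6 and 198 CPM at 21 mo and 38.8, 31.7 and 49.2 CPM with O304. Every library of both 21-month groups was above every 18 mo library. For O304 against 18 mo, Junb was the only one of the 10 genes without overlap, and 13.2% of all tested genes lay wholly higher in that comparison. The log2 fold change against 18 mo was 1.94 ± 0.54 (adjusted p = 0.0849) at 21 mo and 0.61 ± 0.53 (adjusted p = 0.757) with O304, and for O304 against 21 mo it was -1.33 ± 0.53 (adjusted p = 0.214). The span of Junb overlaps that of Prdx2 on the opposite strand by 351 bases. Prdx2 had 3189 to 5058 counts per library. The library kit does not mark strand, so reads from those bases cannot be assigned to either gene by strand.

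Jun (ENSMUSG00000052684, chr4:95049034-95052222, minus strand), the strongest activator of the family, varied in a different way. It had 44.3, 104 and 50.7 CPM at 18 mo, 32.3, 142 and 130 CPM at 21 mo and 61.9, 58.8 and 82.4 CPM with O304. Its lowest library and its highest library were both 21 mo libraries, and 18 mo replicate 2 came next below 21 mo replicates 2 and 3. Log2 fold changes were 0.61 ± 0.51 (adjusted p = 0.459) and -0.58 ± 0.51 (adjusted p = 0.508). The antisense gene Junos overlaps it and had 3 to 33 counts per library.

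Jund (ENSMUSG00000071076, chr8:70698949-70700616, plus strand), which is expressed in resting cells and responds little to stimuli, had 54.1, 68.5 and 78.2 CPM at 18 mo, 46.4, 65.6 and 80.9 CPM at 21 mo and 59.0, 43.6 and 56.0 CPM with O304. The 3 groups overlapped throughout. Its log2 fold change against 18 mo was -0.056 ± 0.22 (95% interval -0.56 to 0.44, adjusted p = 0.89), and for O304 against 21 mo it was -0.28 ± 0.22 (interval -0.79 to 0.22, adjusted p = 0.46). These were the narrowest intervals of the 10 genes in both comparisons.

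Egr1 (ENSMUSG00000038418, chr18:34859823-34864984, plus strand), a zinc finger factor induced through SRF and the ERK pathway, had 9.85, 17.1 and 6.90 CPM at 18 mo, 7.89, 50.2 and 123 CPM at 21 mo and 19.6, 11.5 and 26.5 CPM with O304. The order of the 21 mo libraries was that of Fos and Junb, and replicate 1 lay inside the 18 mo range. The log2 fold change was 2.42 ± 0.81 against 18 mo (adjusted p = 0.112) and -1.65 ± 0.78 for O304 against 21 mo (adjusted p = 0.26).

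Ier3 (ENSMUSG00000003541, chr17:35821684-35822923, plus strand), a small protein that modulates cell survival and ERK signalling, had 46.9, 75.6 and 49.6 CPM at 18 mo, 33.9, 52.4 and 102 CPM at 21 mo and 37.6, 27.7 and 67.0 CPM with O304. Only 21 mo replicate 3 was above the 18 mo range. Log2 fold changes were 0.13 ± 0.43 (adjusted p = 0.866) and -0.52 ± 0.44 (adjusted p = 0.492).

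**Figure D3:**
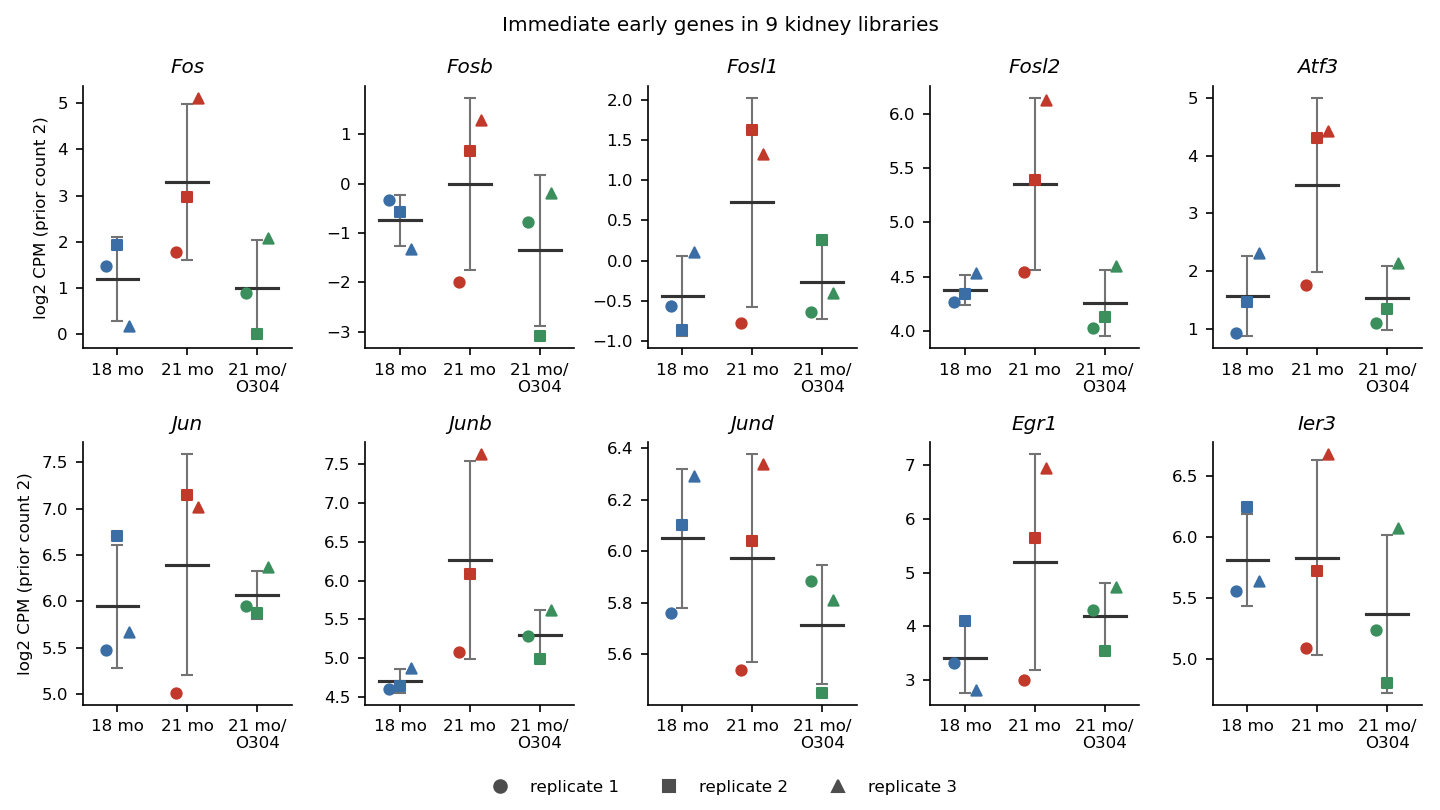
Each panel shows log2 CPM of 1 gene (prior count 2) in each of the 9 libraries, by group on the x axis and with a symbol for the replicate. Horizontal lines are group means and bars 1 SD (n = 3). The vertical axes differ between panels, and 21 mo replicate 1 was the lowest library for Jun, at 32.3 CPM.

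Since AP-1 is a dimer, the proportions within each family were also compared. Summed FPKM of Jun, Junb and Jund was 54.4, 82.9 and 73.3 at 18 mo, 51.0, 110 and 169 at 21 mo and 69.5, 56.7 and 78.4 with O304. Jund made up 57.1%, 48.6% and 62.1% of this sum at 18 mo, 52.8%, 34.7% and 27.7% at 21 mo and 49.4%, 44.8% and 41.5% with O304. Junb made up 18.4%, 12.8% and 16.9% at 18 mo, 27.9%, 26.0% and 49.2% at 21 mo and 23.6%, 23.6% and 26.5% with O304. The Junb share was thus higher in each of the 6 libraries of the later groups than in any 18 mo library, including 21 mo replicate 1. The difference in means was 18.3 percentage points at 21 mo and 8.53 with O304, each with an exact two-sided permutation p of 0.1, the smallest possible. Over the 18 tests on such proportions and sums, the smallest Benjamini-Hochberg adjusted p was 0.45.

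The Fos family was far less abundant per length. Fos, Fosb, Fosl1 and Fosl2 summed to 3.40, 3.92 and 3.32 FPKM at 18 mo, 3.98, 9.30 and 22.8 FPKM at 21 mo and 2.71, 2.73 and 4.61 FPKM with O304. The 18 mo and 21 mo sums did not overlap (difference in means 8.48 FPKM, exact permutation p = 0.1). Fosl2 was the larger part in most libraries, with 55.8%, 52.0% and 69.6% of the sum at 18 mo and 59.9%, 64.1% and 52.5% with O304. At 21 mo it made up 58.2%, 44.9% and 30.4%, and in replicate 3 Fos itself reached 62.1%.

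**Figure D4:**
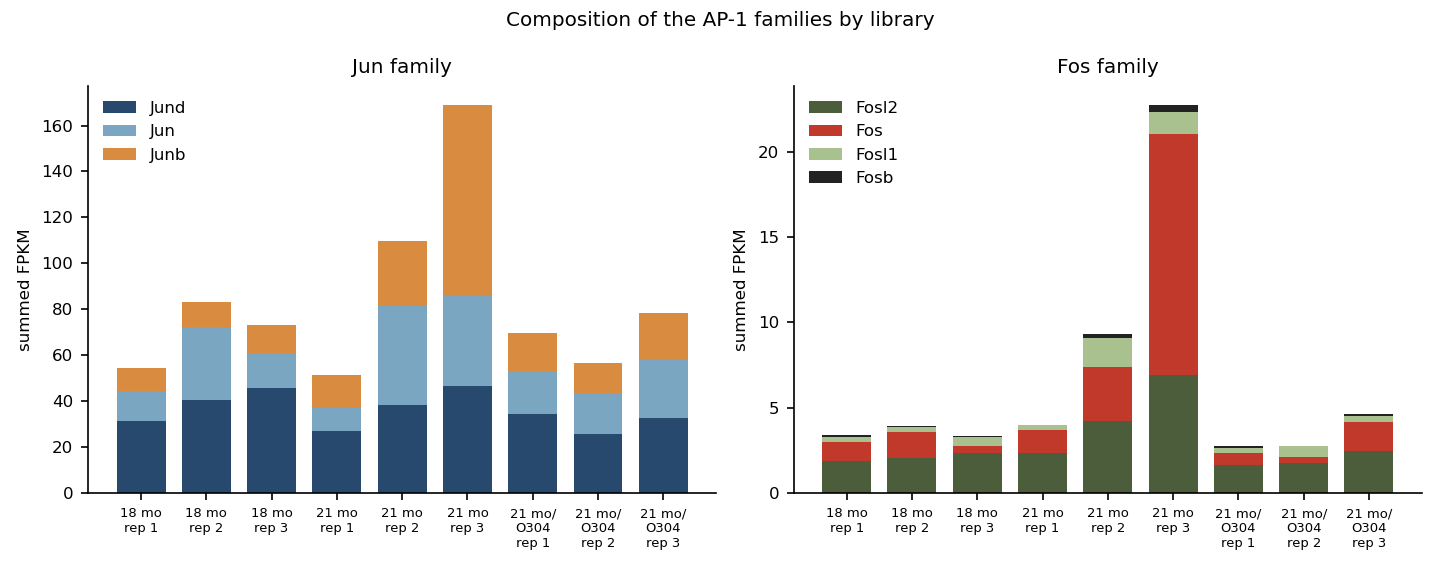
Bars give the summed FPKM of the Jun family and of the Fos family in each of the 9 libraries, with a colour for each gene. Jund held between 27.7% and 62.1% of the Jun family, and 21 mo replicate 3 reached 169 FPKM for the Jun family and 22.8 FPKM for the Fos family.

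The median spread between libraries was larger over the 10 genes than over all tested genes in each group, though not for every gene. The median SD of log2 CPM over the 10 genes was 0.51 at 18 mo, 1.29 at 21 mo and 0.51 with O304, beside 0.178, 0.37 and 0.196 over all tested genes. Among all tested genes, the 21 mo SD of Egr1 was at the 98.3rd percentile, that of Fosb at the 97.2nd, that of Fos at the 96.8th and that of Atf3 at the 95.4th. Jund was at the 53.9th. At 18 mo, the SDs of Fosl2 (0.139) and Junb (0.151) were below the median over all tested genes. Fosb and Fosl1 had few counts, 124 and 181 over the 9 libraries, so their SDs include counting error. Fos had as few as 15 counts in 1 library, 21 mo/O304 replicate 2. The 10 genes were not matched by level to all tested genes.

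The 10 genes also differed in how closely they followed each other over the 9 libraries. Pearson r of log2 CPM ranged from 0.303 for Fosl1 with Ier3 to 0.95 for Atf3 with Fosl2, with a median of 0.699 over 45 pairs. Junb followed Fosl2 (0.915) and Egr1 (0.913), and Fos followed Fosl2 (0.897). Jund followed Fos (0.483), Junb (0.471) and Egr1 (0.493) less closely. These values are descriptions over libraries of 3 groups, and the marker sums above differed between the same libraries. The part of those cells in the levels of the 10 genes was not tested.

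Other genes of the same response were then examined. Of 50 other immediate early genes, 49 were tested, and none passed an adjusted p of 0.05 in any comparison. At an unadjusted p under 0.05, 24 of 49 were higher and 0 lower at 21 mo against 18 mo (all tested genes 14.0% and 12%), where the median log2 value was 0.855. For O304 against 21 mo, 1 was higher and 23 lower (all tested genes 8.27% and 12.4%), with a median of -0.792. Myc, a growth-promoting transcription factor, had 5.20, 3.20 and 4.47 CPM at 18 mo, 10, 25.5 and 23.4 CPM at 21 mo and 6.86, 6.62 and 7.70 CPM with O304. In contrast to Fos and Egr1, all 3 of its 21 mo libraries were above all the others, replicate 1 included. Its log2 fold change against 18 mo was 2.19 ± 0.35 (adjusted p = 0.0626). Over all tested genes, 13.5% lay wholly above 18 mo at 21 mo. Klf6, a zinc finger factor induced by tissue injury, had 38.2, 36.9 and 43.0 CPM at 18 mo, 59.1, 190 and 186 CPM at 21 mo and 34.5, 51.0 and 41.8 CPM with O304, with a log2 fold change of 1.88 ± 0.38 (adjusted p = 0.0626). Zfp36l1, an RNA-binding protein that promotes decay of short-lived mRNAs, was at 0.99 ± 0.20 (adjusted p = 0.0626) and at -0.99 ± 0.20 for O304 against 21 mo (adjusted p = 0.175).

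Among 18 tested leucine zipper genes that can pair or compete with AP-1 proteins, 5 were higher and 1 lower at an unadjusted p under 0.05 for 21 mo against 18 mo (all tested genes 14.0% and 12%), where the median log2 value was 0.236. With O304 against saline, 1 was higher and 3 lower (all tested genes 8.27% and 12.4%), which is near the background. Nfe2l2, the regulator of antioxidant genes, had 91.8, 89.2 and 86.6 CPM at 18 mo, 115, 164 and 167 CPM at 21 mo and 96.5, 101 and 109 CPM with O304. Crem, a cAMP-responsive factor, had 14.4, 14.5 and 16.6 CPM, then 23.5, 25.9 and 21.3 CPM and 18.7, 21.5 and 20.2 CPM in the same order, so that it was above the 18 mo range in all 6 later libraries. Both had an adjusted p of 0.0626 for 21 mo against 18 mo, with log2 fold changes of 0.74 ± 0.16 for Nfe2l2 and 0.63 ± 0.13 for Crem. Over all tested genes, 13.5% lay wholly above 18 mo at 21 mo and 13.2% with O304.

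The 27 genes of a list of upstream kinases and SRF or ETS factors had smaller values. The list also held Nab1 and Nab2, which are neither kinases nor SRF or ETS factors. At an unadjusted p under 0.05, 5 were higher and 4 lower at 21 mo against 18 mo (all tested genes 14.0% and 12%), where the median log2 value was 0.133, and 2 were higher and 5 lower for O304 against 21 mo (all tested genes 8.27% and 12.4%). These counts were near the background. Srf, the factor that binds the serum response elements of Fos and Egr1, had 38.1, 35.2 and 43.0 CPM at 18 mo, 28.0, 27.2 and 30.1 CPM at 21 mo and 21.2, 24.7 and 23.7 CPM with O304. It was below the 18 mo range in all 6 later libraries. Over all tested genes, 15.3% lay wholly below 18 mo at 21 mo and 13.3% with O304. The log2 fold change of Srf against 18 mo was -0.45 ± 0.12 (adjusted p = 0.0803) at 21 mo, opposite in sign to Fos and Egr1. With O304 it was -0.74 ± 0.12 (adjusted p = 0.282). Map2k2, a kinase that activates ERK, was at -0.54 ± 0.13 (adjusted p = 0.0718) for 21 mo against 18 mo.

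Genes described as AP-1 or Egr1 targets were farther from 0. Of 24 tested, 17 were higher and 0 lower at an unadjusted p under 0.05 for 21 mo against 18 mo (all tested genes 14.0% and 12%), where the median log2 value was 1.88. For O304 against 21 mo, 0 were higher and 16 lower (all tested genes 8.27% and 12.4%), with a median of -1.82. Like the 10 genes and the other lists, these targets were chosen with earlier results of these data known. The counts therefore describe the list, and whether AP-1 or Egr1 acted on these genes was not tested. Spp1, the secreted matrix protein osteopontin, had 742, 646 and 614 CPM at 18 mo, 1230, 11200 and 12600 CPM at 21 mo and 1000, 649 and 676 CPM with O304. Its log2 fold change was 3.64 ± 0.75 (adjusted p = 0.0626) against 18 mo and -3.42 ± 0.74 for O304 against 21 mo (adjusted p = 0.175). Lcn2, a marker of tubular injury, had 15.4, 2.10 and 5.71 CPM at 18 mo, 17.5, 323 and 1260 CPM at 21 mo and 11.8, 3.22 and 10 CPM with O304. Cd44, a hyaluronan receptor, had 3.03, 6.35 and 6.45 CPM at 18 mo and 10.4, 39.0 and 36.9 CPM at 21 mo. With O304 it had 5.52, 12.1 and 10.1 CPM, of which replicates 2 and 3 were above the 18 mo range. Several of these genes are also expressed by macrophages or fibroblasts, whose markers were highest in 21 mo replicates 2 and 3, and the part of those cells was not tested. For O304 against 18 mo, the medians of the other immediate early genes, the leucine zipper genes, the upstream genes and the targets were 0.211, 0.077, 0.037 and 0.11.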

How the data were processed

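Kidney RNA was extracted with Trizol and made into libraries with the NEBNext Ultra RNA kit, which does not mark strand. Per the labels, the submitters' processing notes name HISAT2 2.0.5, featureCounts 1.5.0-p3 and DESeq2 1.20.0 with GRCm38. The deposited table holds raw counts per gene and FPKM values made by the authors, and their 10 columns of comparison results were not used. Here, counts of all 9 libraries were filtered (edgeR filterByExpr, minimum count 10, total 15), scaled by TMM and tested with the edgeR 4.0.16 quasi-likelihood test in R 4.3.3, with 1 fit over the 3 groups and Benjamini-Hochberg adjustment over the 15902 genes tested. SE is the log2 fold change divided by the square root of F. CPM uses TMM library sizes. Single values were compared by exact two-sided permutation tests, which with 3 against 3 libraries cannot go below 0.1. Alternatives used DESeq2 1.42.0, limma 3.58.1 with voom or log2 FPKM, other filters and omission of each library. Scripts were tested on simulated data. The 10 genes, 5 other pathway lists and 12 marker lists were chosen with earlier results of these data known. Named genes are the 10 genes, up to 3 of each pathway list with the smallest p in each of 21 mo against 18 mo and 21 mo/O304 against 21 mo, and the 3 protein-coding genes most correlated with Fos, Jun, Egr1 and Atf3.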

Additional observations from a re-analysis of the deposited data

How the results depend on the processing

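With 3 libraries per group and an SD of log2 CPM of up to 2.01 at 21 mo, the counts of called genes depended on the tool and on 21 mo replicate 1, whereas the medians for 21 mo against 18 mo and for O304 against 21 mo kept their direction. For 21 mo against 18 mo, 0 of the 10 genes were called at an adjusted p of 0.05. At an unadjusted p there were 6 (14.0%), with DESeq2 5 (6.92%), and with DESeq2 on only the 6 libraries compared (chosen after seeing the data) 4 (4.02%). With every gene of at least 1 count there was 1 (1.43%), with voom sample weights 7 (26.3%), and with 1 library left out 0 to 7. The 7 came without 21 mo replicate 1 (13.6%). Each percentage is the share of all genes tested in that setting that was called higher. For O304 against 21 mo, where 0 were called, these counts were 4, 3, 2, 0, 8 and 0 to 6. The shares of all tested genes called lower were 12.4%, 4.27%, 2.04%, 0.0283% and 19.8% in that order, and 12.6% without 21 mo replicate 1, which gave the 6. For O304 against 18 mo, DESeq2 on only the 6 libraries called 1, Junb, against 2.48% of the genes it tested called higher. Over all genes, 3 were called for 21 mo against 18 mo, beside 2059 with DESeq2, 1027 with DESeq2 on the 6 libraries, 576 with every gene of at least 1 count, 8409 with voom weights, 4186 without 21 mo replicate 1 and 130 without 21 mo replicate 3. For O304 against 21 mo, 0 were called, beside 947, 469 and 6528 with DESeq2, DESeq2 on 6 libraries and voom, and 3808 without 21 mo replicate 1. The cause was not tested. The median log2 fold change lay between 0.81 and 1.98 for 21 mo against 18 mo and between -1.79 and -0.67 for O304 against 21 mo as single libraries were left out, while that for O304 against 18 mo ran from -0.33 to 0.081 and so changed sign. Values that changed sign were near 0. For 21 mo against 18 mo, Ier3 was at -0.028 with the replicate block, at -0.06 with voom weights and from -0.43 to 0.45 with single libraries left out, and Jund from -0.27 to 0.15. For O304 against 21 mo, Ier3 ranged from -0.95 to 0.038. For O304 against 18 mo, Fos was at 0.004 with voom weights and from -0.88 to 0.29 with libraries left out, Fosb from -1.07 to 0.28, Fosl1 from -0.16 to 0.59, Fosl2 from -0.29 to 0.001, Jun from -0.19 to 0.51 and Atf3 from -0.46 to 0.40. The labels share replicate numbers across groups. The deviations of same-numbered libraries correlated at -0.13 to 0.175, over 0.1 in 5 of 9 pairs. A library correlated best with its own number in 10 of 18 cases. These values do not settle whether the numbers pair the mice, and the main fit used no pairing. With the replicate block, 0 of the 10 genes were called in each comparison, and the median log2 fold change was 1.24 for 21 mo against 18 mo and -1.17 for O304 against 21 mo. A minimum of 10 counts in every library leaves out Fosb and Fosl1, and the fits on FPKM leave out Fosb.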

Other observations

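Heat shock genes, which are also induced by acute stress, varied among themselves. The 7 genes summed to 1960, 2260 and 2520 CPM at 18 mo, 2970, 3360 and 1820 CPM at 21 mo and 2880, 3010 and 3250 CPM with O304. Most of each sum was Hspa8, a constitutive chaperone, with 1520 of the 1820 CPM in 21 mo replicate 3. That library was the lowest of the 9 for Hspa8 and Hsph1 but the highest for Hspb1. None passed an adjusted p of 0.05 in either comparison. At an unadjusted p under 0.05, 1 of the 7 genes was higher at 21 mo against 18 mo, beside 14.0% of all tested genes, and 5 were lower for O304 against 21 mo, beside 12.4%. Hspa1b, an inducible Hsp70 gene, had 37.1, 79.2 and 39.0 CPM at 18 mo, 29.1, 138 and 53.3 CPM at 21 mo and 12.4, 7.63 and 11.1 CPM with O304. All 3 libraries with O304 were below all 6 others, while 10.5% of all tested genes lay wholly below 21 mo and 13.3% below 18 mo. The log2 fold change of Hspa1b was -2.82 ± 0.57 against 21 mo (adjusted p = 0.175). Hspa1a, its near-identical copy, had 13.8, 40.4 and 21.9 CPM, then 10.3, 40.9 and 14.6 CPM and 6.98, 3.10 and 5.16 CPM in the same order, and reads may be split between the pair. Hspb1, a small heat shock protein, had 15.7, 14.5 and 17.8 CPM at 18 mo, 24.1, 89.3 and 92.4 CPM at 21 mo and 17.9, 40.9 and 32.7 CPM with O304. All 3 of its 21 mo libraries were above the 18 mo range, which held for 13.5% of all tested genes.

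The genes outside the 10 whose log2 CPM was most like that of a member over the 9 libraries were Trp63 for Fos (Pearson r = 0.979), Shtn1 for Jun (0.95), Rab27b for Egr1 (0.958) and Arl6ip5 for Atf3 (0.987). Trp63 had 0.867, 0.801 and 0.283 CPM at 18 mo, 1.14, 2.73 and 7.74 CPM at 21 mo and 0.64, 0.358 and 0.891 CPM with O304. Arl6ip5 had 53.0, 55.6 and 62.2 CPM, then 59.5, 78.3 and 87.2 CPM and 53.3, 56.7 and 60.0 CPM. The next were 4930522L14Rik (0.976) and Eif3i (0.961) for Fos, Thop1 (0.935) and Brca2 (0.927) for Jun, Fam92a and Sec22a (both 0.953) for Egr1, and Prmt2 (0.982) and Map4k5 (0.973) for Atf3. Each r is the highest picked from all tested protein-coding genes, over 9 libraries.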
